A study of Rattus norvegicus with 8 samples.

Results

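Long noncoding RNA genes with appreciable levels in rat lung were examined in 236 rows of the deposited table of 32623 genes. Members were chosen by annotation and by level. A row was a member when its annotated type was lincRNA (a long RNA between genes), antisense or processed_transcript and its mean FPKM over the 8 libraries was at least 1. FPKM is the number of sequenced fragments scaled to transcript length and library depth. The members were thus selected on their mean FPKM, which is given below only as a description. There were 189 lincRNA, 14 antisense and 33 processed_transcript members, out of 3226 rows of these types at any level. A further 160 rows at that level held one of these types beside another and were left out.

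The study compared whole lung tissue of rats in 2 groups, 4 libraries given monocrotaline (MCT) and 4 control libraries. Monocrotaline is a plant alkaloid that injures lung vessels and is used in rats to model pulmonary hypertension. No strain, sex, age, dose, time after treatment or description of what the control animals received is given in the sources used here, and they do not state whether each library is a different animal. P-values therefore measure only the spread between these libraries, which may be technical. Polyadenylated RNA was captured with oligo(dT) beads, so RNAs without a poly(A) tail are poorly represented.

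Long noncoding RNAs are transcripts that are not translated into a known protein. Some act in place, at the gene beside which they are transcribed, and others in the nucleus or cytoplasm as partners of proteins or small RNAs. Many start next to the promoter of a developmental transcription factor gene and are transcribed away from it. Fendrr, transcribed away from the Foxf1 promoter, is a known example that is needed for heart, body wall and lung development in mice. Others carry a microRNA within their transcript.

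The sequences shown beside the results come from RefSeq. AABR07038983 overlaps the row of Mir223, which encodes a microRNA abundant in neutrophils and other myeloid cells. Its mature forms are shown 5′ to 3′ with the seed, the bases 2 to 8 that pair with targets, in capitals, because the host transcript was higher in MCT lungs. The seeds of the 5p and 3p arms differ from each other.
rno-miR-223-5p: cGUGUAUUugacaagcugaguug
rno-miR-223-3p: uGUCAGUUugucaaauacccc

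Promoters are shown 5′ to 3′ on the strand of the gene, as the 250 bases before and 50 after the RefSeq start in the build GRCr8, while all other positions below are those of the deposited table in Rnor_6.0. Fendrr is the RefSeq long noncoding RNA that lies beside Foxf1, as the member AABR07044017 does, and Gata2 is the coding gene whose start faces that of AABR07061382. LOC102555094 and LOC102549869 are members that differed between the groups and whose own start is in RefSeq. LOC102555094 was a member only through its level in controls, so its difference is a description. LOC102549869 kept an edgeR adjusted p under 0.05 in only 2 of the 8 fits that left out a library. For LOC102549869 the first of 3 listed windows is shown. Capitals mark a CCAAT box (CCAAT on either strand) or a GC box (GGGCGG on either strand).
Fendrr, chr19:66061417-66061716, strand -: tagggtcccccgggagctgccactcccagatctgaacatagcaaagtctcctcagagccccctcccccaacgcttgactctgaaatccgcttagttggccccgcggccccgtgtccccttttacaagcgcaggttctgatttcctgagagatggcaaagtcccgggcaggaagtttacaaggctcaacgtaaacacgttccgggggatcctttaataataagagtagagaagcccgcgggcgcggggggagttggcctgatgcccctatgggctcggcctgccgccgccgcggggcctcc
Gata2, chr4:122216031-122216330, strand +: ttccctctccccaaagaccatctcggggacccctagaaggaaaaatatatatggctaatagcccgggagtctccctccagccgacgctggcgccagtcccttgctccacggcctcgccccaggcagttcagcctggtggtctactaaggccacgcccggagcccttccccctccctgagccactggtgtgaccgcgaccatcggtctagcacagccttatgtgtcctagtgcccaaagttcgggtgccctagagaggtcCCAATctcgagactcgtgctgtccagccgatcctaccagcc
LOC102555094, chr4:123074110-123074409, strand -: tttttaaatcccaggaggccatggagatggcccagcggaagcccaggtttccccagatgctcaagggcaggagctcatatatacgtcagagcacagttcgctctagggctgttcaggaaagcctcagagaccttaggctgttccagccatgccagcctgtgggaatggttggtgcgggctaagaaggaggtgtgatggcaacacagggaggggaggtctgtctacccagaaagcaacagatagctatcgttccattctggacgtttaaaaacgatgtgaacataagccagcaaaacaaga
LOC102549869, chrX:30873680-30873979, strand -: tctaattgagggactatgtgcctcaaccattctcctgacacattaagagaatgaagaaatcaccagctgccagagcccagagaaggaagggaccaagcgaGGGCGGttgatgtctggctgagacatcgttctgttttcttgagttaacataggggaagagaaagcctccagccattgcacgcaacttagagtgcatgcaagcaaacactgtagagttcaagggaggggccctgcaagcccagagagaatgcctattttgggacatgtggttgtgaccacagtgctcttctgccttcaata

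The Fendrr and Gata2 windows held 20 and 16 CpG dinucleotides and had a GC content of 61% and 61.3%. The LOC102555094 and LOC102549869 windows held 7 and 4 CpG and had a GC content of 52% and 49.3%. The median over 33469 RefSeq promoters of this length was 7 CpG and 51.7% GC. The Gata2 window held 1 CCAAT box, which 37.5% of all promoters held, and the LOC102549869 window held 1 GC box, which 33.1% held. TATAAA (14.2% of all promoters) and the palindrome CACGTG (6.42%) were also searched on both strands, and neither was in any of these 4 windows. A match describes the letters only.

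The label of noncoding RNA did not hold for every row. The descriptions of 51 members name a protein, 23 of them processed_transcript, 26 lincRNA and 2 antisense. By name 33 members matched a RefSeq gene, which RefSeq classes as long noncoding in 13 cases and as protein-coding in 20, and 203 did not match. An empty description or a missing match does not show that a row is noncoding. Most members have only a clone name, 178 beginning with AABR or AC, and 37 have a LOC name. Names shared by several members concern 16 rows, and such a row is given below with its identifier.

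Most members were present at low levels. Their mean FPKM had a median of 2.74, quartiles of 1.5 and 6.01 and a maximum of 676.2. 143 reached 2 and 39 reached 10. Just inside the threshold lay LOC102547954, LOC102555094 and AABR07004232, with means of 1.01, 1.01 and 1.03. Just outside it lay the antisense row AABR07072184 and the lincRNA row AABR07027272, both at 0.998, and the processed_transcript row AABR07039210 at 0.991. The control mean was under 1 in 18 members and the MCT mean under 1 in 19, so these passed the level threshold through one group only. The libraries stood for 10.8 to 14.8 M read pairs in controls and 11.3 to 18.1 M in MCT, and the median member was counted with 50.4 read pairs per library against 238 for all tested genes. The median standard error (SE) of a log2 fold change was accordingly 0.349 for members and 0.173 for all tested genes. Control 1 and MCT 1 stood apart from the other libraries on the second principal component of all genes (24.8 and 77.2 against -36.9 to -4.5).

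In MCT lungs 11 members were higher and 17 lower than in control lungs, 28 of the 235 tested (11.9%), where called means an edgeR adjusted p under 0.05 over all 16715 genes tested. Over all tested genes the share called was 20.5%, with 11.0% higher and 9.45% lower, against 4.68% and 7.23% of members. Of the called members, 2 of the higher (AC103574 and AABR07051592) and 3 of the lower (AABR07026612, LOC102555094 and AABR07064878) had passed the level threshold only through the group in which they were high, so their calls carry no weight beyond their values. AABR07006263 had too few reads to be tested. These counts changed when single libraries were left out, and so did those over all tested genes. The latter were 1845 higher and 1579 lower with all libraries, 1191 and 975 without MCT 2, and 1946 and 1730 without MCT 1. Among members 5 were higher without control 4 or MCT 3, and 6 without control 1, control 2 or MCT 2. Without control 3, 7 members were higher. Lower members numbered 10 without control 2 or MCT 2 and 11 without MCT 4. With control 1 and MCT 1 both left out, 8 were higher and 18 lower. FPKM did not overlap between the groups in 46 members (19.6%), against 25.0% of all tested genes. Of the 28 called members 26 were among the 46, and of the 3424 genes called over the whole test 3155 did not overlap. The median log2 fold change of members was -0.07 against 0.03 for all tested genes.

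**Figure D1:**
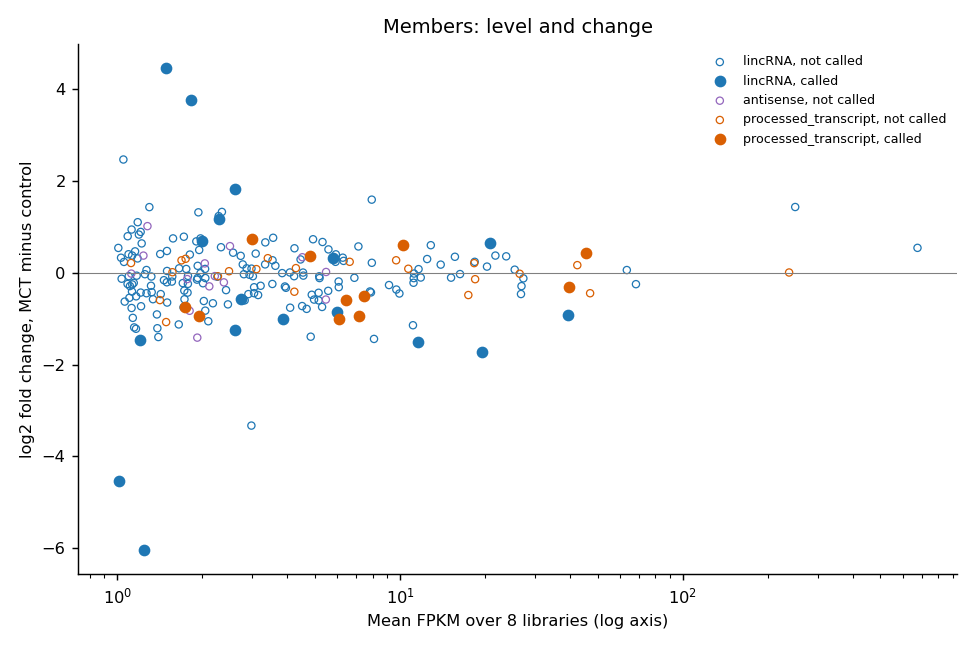
Each point is a tested member, with its mean FPKM over 8 libraries on a logarithmic horizontal axis and its log2 fold change (MCT minus control) on the vertical axis; filled points are called and colours give the annotated type. The 28 called members run from -6.04 to 4.46, and the extreme fold changes belong to members of low mean FPKM.

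The annotated types differed in how many members were called. Among lincRNAs 7 were higher and 10 lower of 188 tested (9.04%). None of the 14 antisense members was called by edgeR. The unadjusted edgeR p was under 0.05 in 4 of them, and in 5648 of all 16715 genes tested. Among processed_transcript members 4 were higher and 7 lower of 33 (33.3%). The median processed_transcript member was counted with 325 read pairs per library, the median lincRNA with 40 and the median antisense member with 27.8. The part of depth in the difference between types was not tested. Of protein-coding rows with a mean FPKM of at least 1, 23.9% were called.

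**Figure D2:**
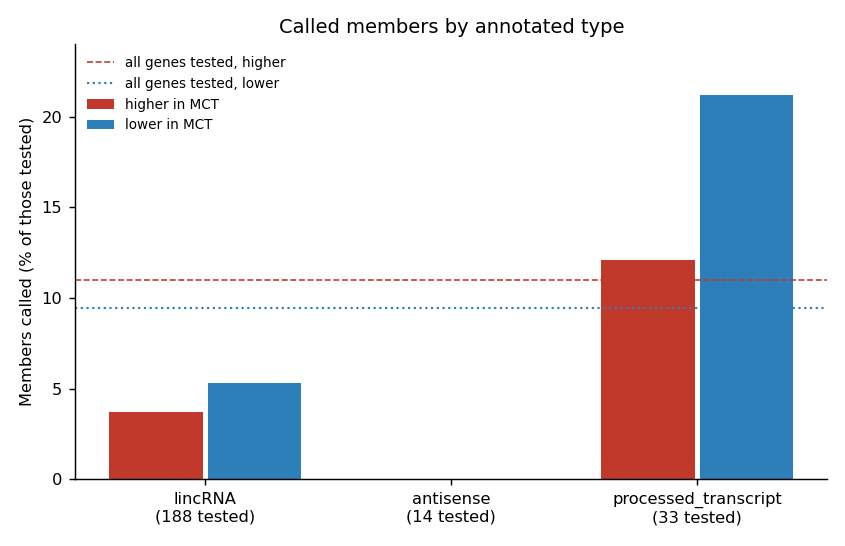
Bars give the percentage of tested members of each annotated type that were called higher (red) or lower (blue) in MCT, and the lines give the same for all tested genes. Processed_transcript rows reached 12.1% higher and 21.2% lower, lincRNAs 3.72% and 5.32%, and no antisense member was called.

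Of the lincRNAs that fell, 5 lie within 10 kb of a protein-coding gene that fell as well. AABR07044017 (chr19:52995529-53010509, minus strand) starts 1823 bp from Foxf1, a forkhead transcription factor gene of lung mesenchyme and endothelium, and is transcribed away from it. RefSeq lists Fendrr, whose promoter is shown above, among the noncoding genes between Zdhhc7 and Foxf1. AABR07044017 had 53.54, 54.3, 48.25 and 49.66 FPKM in controls and 23.94, 22.72, 27.32 and 35.41 in MCT. Every MCT library lay below every control library, with the fourth MCT library the highest of its group. The log2 fold change was -0.91 (SE 0.14, adjusted p = 0.00269). Foxf1 itself averaged 138.8 ± 14.0 FPKM in controls and 75.7 ± 17.3 in MCT (SD, n = 4), a log2 fold change of -0.88 (SE 0.15, adjusted p = 0.00447).

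AABR07061382 (chr4:120129194-120133017, minus strand) starts 696 bp from Gata2, a zinc finger transcription factor gene active in endothelial, blood progenitor and mast cells, and the pair is also transcribed in opposite directions. Its control libraries had 13.85, 19.65, 19.04 and 15.63 FPKM and its MCT libraries 5.52, 5.99, 5.09 and 7.6. The groups were far apart, and the log2 fold change was -1.50 (SE 0.18, adjusted p = 0.000858). Gata2 fell from 89.0 ± 9.21 to 36.2 ± 3.49 FPKM (SD, n = 4), by 1.3 on the log2 scale (SE 0.10, adjusted p = 0.00022). Mast cell markers moved the other way, with 9 of 12 higher, and Gata2 and Kit are the 2 lower genes of that list. The summed FPKM of the list was 154.4 to 173.9 in controls and 318.6 to 1335 in MCT. Most of the control sum is Gata2 and Kit, at means of 89.0 and 52.2, so the sum understates the rise of the 9 higher markers.

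AC125982 (chr7:130472681-130474055, plus strand) ends 224 bp before Shank3, a gene for a scaffold protein known best from synapses, on the same strand. It had 30.39, 23, 29.73 and 37.07 FPKM in controls and 5.41, 11.72, 9.07 and 9.73 in MCT, without overlap. The log2 fold change was -1.74 (SE 0.27, adjusted p = 0.00264), and that of Shank3 was -1.15 (SE 0.14, adjusted p = 0.00103). Shank3 spans 60401 bp in the deposited table and 70301 bp in RefSeq. Whether AC125982 is part of the Shank3 transcript was not tested.

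AABR07058656 (chr7:129842147-129856582, plus strand) ends 3532 bp before Pim3, a serine/threonine kinase gene, on the same strand. Its FPKM was 4.19, 5.01, 2.9 and 2.61 in controls and 0.98, 1.76, 1.49 and 1.99 in MCT, and the log2 fold change was -1.25 (SE 0.32, adjusted p = 0.0256). The call was lost without control 1, control 2, MCT 2 or MCT 3. Pim3 fell by 0.76 on the log2 scale. AABR07012475, 2979 bp before Arnt, the partner subunit of hypoxia-inducible factors, had 2.95 to 3.49 FPKM in controls and 1.78 to 2.58 in MCT, a log2 fold change of -0.58 (SE 0.15, adjusted p = 0.0263) that lost its call without control 2, control 4, MCT 2 or MCT 4. Arnt fell by 0.47 on the log2 scale.

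Endothelial markers moved in the same comparison. Of 11 tested markers of endothelial cells 7 were lower, among them Tek, Sox17 and Epas1, and 1, Emcn, was higher. Their summed FPKM was 1852 to 2422 in control libraries and 898.6 to 1101 in MCT libraries. None was at 0. In bulk tissue, fewer cells of a type and less RNA per cell cannot be told apart, and the part of the endothelial markers in the falls of these lincRNAs was not tested.

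A pair of lincRNAs was nearly absent from MCT lungs. Both were members only through their level in controls, so their differences are a description. AABR07026612 (chr16:86465536-86470444, plus strand) had 2.56, 1.87, 3.42 and 1.99 FPKM in controls and 0.11, 0, 0 and 0 in MCT. About 43 read pairs stood against 1, a ratio of control to MCT of 47.1 with an exact 95% interval of 8.01 to 1900 that covers counting error only. The nearest protein-coding row, RGD1564807, lies 111329 bp away and is listed at 0 in every library. Farther along the chromosome, Efnb2, the gene of the arterial endothelial ligand ephrin-B2, fell from 83.9 ± 2.08 to 19.5 ± 2.14 FPKM (SD, n = 4), and it was singled out after its values were seen. LOC102555094 (chr4:120993630-120996226, minus strand), whose promoter is shown above, had 1.73, 1.17, 2.89 and 2.08 FPKM in controls and 0, 0, 0 and 0.25 in MCT. Its 33 read pairs against 2 gave a ratio of control to MCT of 18.1 (4.62 to 155). Both left the set of tested genes when the counts were first divided by the 3.67 units that 1 read pair was worth.

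Other lincRNAs fell without a falling neighbour. AABR07062477 (chr4:179210005-179211174, plus strand) had 4.84, 3.72, 6.02 and 5.97 FPKM in controls and 2.56, 2.84, 2.68 and 2.2 in MCT, and its log2 fold change was -1.0 (SE 0.23, adjusted p = 0.0156). Bcat1, a branched-chain amino acid transaminase gene 48134 bp away, went the other way, with a log2 fold change of 1.23 (SE 0.38, adjusted p = 0.0498). AABR07021465, 3841 bp past Tdrd5, had 6.66 to 8.85 FPKM in controls and 3.01 to 5.65 in MCT, a log2 fold change of -0.86 (SE 0.23, adjusted p = 0.0267) that was lost without control 2, control 4, MCT 2 or MCT 4. Tdrd5 did not exceed 0.05 FPKM in any library and was not tested.

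Among the lincRNAs that rose, AABR07058158 had the smallest adjusted p. It covers chr7:102648881-102869845 on the plus strand and begins 57641 bp past Myc, the proto-oncogene of cell growth, on the same strand. RefSeq lists Pvt1, a noncoding gene known to be co-amplified with Myc in tumours, among the noncoding genes between Myc and Gsdmc. The FPKM of AABR07058158 was 1.05, 0.75, 1.41 and 1.3 in controls and 3.77, 4.61, 3.68 and 4.24 in MCT. The lowest MCT library was above the highest control library, and the log2 fold change was 1.84 (SE 0.20, adjusted p = 0.000617). Myc rose from 12.4 ± 0.772 to 18.0 ± 1.11 FPKM (SD, n = 4), by a log2 fold change of 0.54 (SE 0.09, adjusted p = 0.00302). Cell cycle markers were also higher in 11 of 12, with a summed FPKM of 21.76 to 53.75 in controls and 105.3 to 162.7 in MCT. Their part in the rise of AABR07058158 was not tested.

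AABR07038983, the lincRNA over Mir223 (chrX:65367912-65368639, plus strand), had 16.46, 14.37, 18.53 and 15.17 FPKM in controls and 22.98, 28.05, 26.76 and 23.63 in MCT. The groups did not overlap, and the log2 fold change was 0.65 (SE 0.12, adjusted p = 0.00688). Mature miR-223 was not measured by these libraries. Of 11 tested macrophage markers 8 were higher and none lower, while their summed FPKM overlapped, at 12530 to 17230 in controls and 10230 to 18850 in MCT. Most of that sum is a single gene, Lyz2, with a mean of 14606.6 in controls and 13620.3 in MCT. The overlap therefore describes Lyz2, which was not called, rather than the other markers. The part of myeloid cells in the rise was not tested. Vsig4, a macrophage complement receptor gene that ends 2212 bp away on the other strand, ranged from 0.38 to 23.72 FPKM over the 8 libraries and was not called. Of the 8 members within 5 kb of a microRNA row, AABR07038983 and AABR07044017, near the microRNA row AABR07044018, were called. The share called was 11.9% of all tested members and 20.5% of all tested genes, and no difference from these was tested. AABR07042514, beside Mir322-2, Mir503-2 and Mir351-2, had a log2 fold change of -0.07 with an SE of 0.33 (adjusted p = 0.905).

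AC103574 (chr1:64235203-64237407, plus strand) was barely detected in controls, at 0, 0.33, 0 and 0.14 FPKM, and reached 1.96, 3.46, 2.98 and 3.05 in MCT. About 5 read pairs in controls stood against 111 in MCT, a ratio of MCT to control of 20.3 (8.43 to 63.6, counting error only). It was a member only through its level in MCT, so this difference is a description. It lies between Oscar and Tarm1, genes of receptors on myeloid cells, and Tarm1, 4458 bp past it, is listed at 0 in every library. AABR07016572 (chr14:104708648-104715786, plus strand), 96051 bp from Slc1a4, had 1.62, 0.92, 1.64 and 1.45 FPKM in controls and 2.57, 2.96, 2.87 and 4.29 in MCT. Again no MCT library reached down to a control library, and the log2 fold change was 1.17 (SE 0.24, adjusted p = 0.0101).

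The row AABR07051592 with identifier ENSRNOG00000054125 (chr3:17666721-17667832, plus strand) had 0.56, 0.13, 0.25 and 0 FPKM in controls and 1.07, 2.53, 6.43 and 3.63 in MCT. MCT libraries differed widely among themselves. It too was a member only through its level in MCT, and its fitted log2 fold change of 3.76 (SE 0.92) is a description. LOC102549869 (chrX:28686163-28698844, minus strand) rose less, from 1.4 to 1.73 FPKM in controls to 2.04 to 2.84 in MCT, a log2 fold change of 0.68 (SE 0.19, adjusted p = 0.0333). Leaving out any one of control 1, control 2, control 4, MCT 2, MCT 3 or MCT 4 ended that call. Tmsb4x, an actin-binding peptide gene 90768 bp away, rose by a log2 fold change of 0.90. AABR07011996, 13552 bp from Tdo2, which is listed at 0, had the smallest called rise, 4.9 to 5.31 FPKM in controls and 5.82 to 7.31 in MCT, a log2 fold change of 0.33 (adjusted p = 0.0423), kept only when MCT 4 was the library left out.

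**Figure D3:**
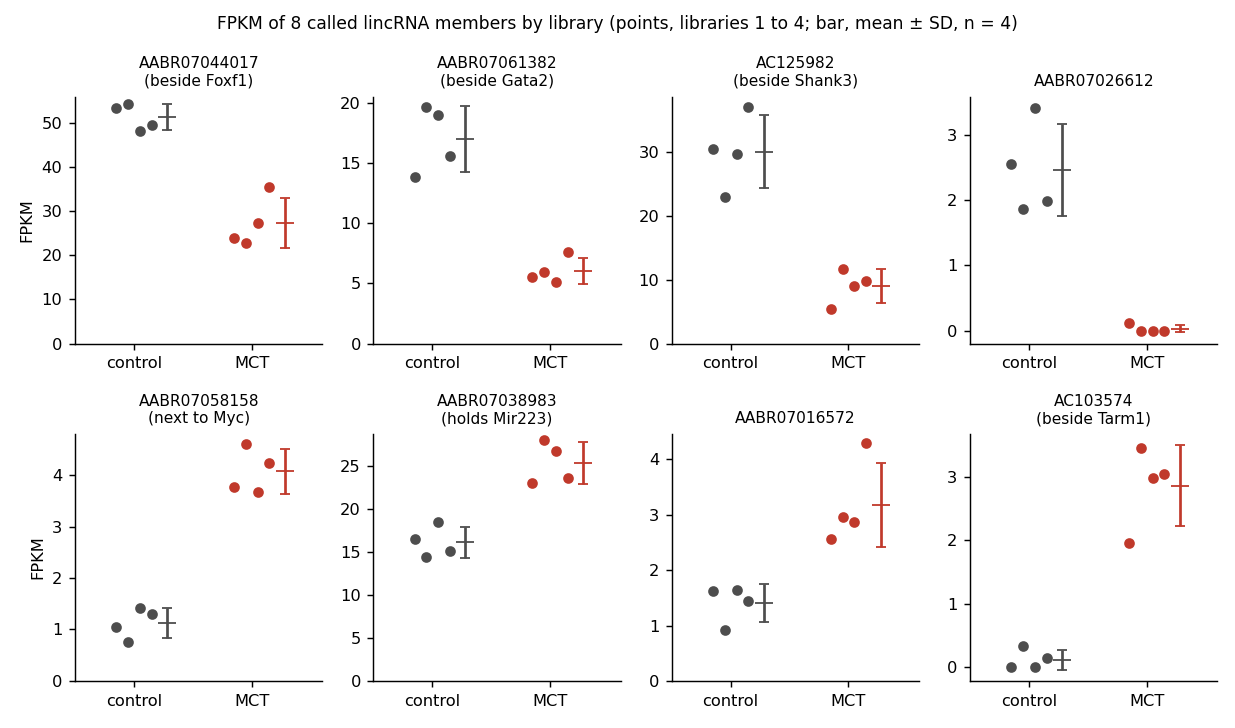
FPKM (vertical axes, each panel on its own scale) of 8 called lincRNAs in control and MCT libraries; points are libraries 1 to 4 of each group and bars are the mean ± SD (n = 4). The panels were picked from called members whose groups do not overlap, so the lack of overlap was fixed by that choice. AABR07026612 is at 0 in 3 MCT libraries and AC103574 at 0 in 2 control libraries, and both were members only through the group in which they were high.

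The processed_transcript members that changed were mostly long rows, and several carry the name or description of a protein-coding gene. Arid5b, named for a chromatin-binding transcription factor, had 7.31, 9.5, 9.18 and 11.68 FPKM in controls and 3.51, 5.39, 5.54 and 5.15 in MCT, a log2 fold change of -0.94 (SE 0.17, adjusted p = 0.00572). Its span overlaps that of Tmem26 on the other strand, which fell by 0.98. Strand in the counting is not known and exons were not compared, so reads of the pair may be shared. AABR07064873, 308626 bp long between Sgpp1 and Esr2, had 8.27, 6.96, 8.46 and 8.74 FPKM in controls and 5.09, 3.08, 4.33 and 3.68 in MCT, a log2 fold change of -1.0 (SE 0.15, adjusted p = 0.00246). This row has no description and matched no RefSeq gene by name, and whether it is noncoding was not tested. The lincRNA AABR07064878 lies within it on the same strand, so their reads may be shared, and its FPKM overlapped between the groups (0.73 to 2.85 in controls, 0.35 to 0.83 in MCT), with a log2 fold change of -1.46 (SE 0.43). It was a member only through its level in controls. Smg1, named for the kinase of nonsense-mediated decay, fell from 2.17 ± 0.484 to 1.3 ± 0.192 FPKM (log2 fold change -0.75, SE 0.16, adjusted p = 0.0111), and Trrap, named for a subunit of histone acetyltransferase complexes, from 8.79 ± 0.667 to 6.19 ± 0.881 (log2 fold change -0.51, SE 0.11, adjusted p = 0.0141; all SD, n = 4).

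Smaller or less steady falls were seen in 3 more. AABR07070312 changed by -0.94 on the log2 scale (adjusted p = 0.0435) and kept its call in 1 of the 8 fits that left out a library, that without control 3. AABR07070307 changed by -0.58 (adjusted p = 0.0273), kept in 3 of those 8. Trrap, AABR07070307 and AABR07070312 overlap other rows of the table, and their reads may be shared. AC098547, beside the class II antigen-processing gene RT1-DMa, changed by -0.32 (adjusted p = 0.0486), kept in 2 of 8, while RT1-DMa rose by a log2 fold change of 1.01.

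The 4 processed_transcript members that rose all name or describe a protein. The row AABR07068316 (ENSRNOG00000019648), described as the collagen VI alpha 3 chain, a matrix protein, had 35.51, 42.13, 39.13 and 37.7 FPKM in controls and 44, 51.65, 50.9 and 63.99 in MCT, a log2 fold change of 0.44 (SE 0.12, adjusted p = 0.0294). AABR07021402, described as neutrophil cytosolic factor 2, a subunit of the phagocyte oxidase, rose from 8.05 ± 1.59 to 12.4 ± 2.01 FPKM (SD, n = 4), a log2 fold change of 0.62 (SE 0.18, adjusted p = 0.0375). AABR07068161, described as dedicator of cytokinesis 10, also overlaps another row and rose by 0.36 (adjusted p = 0.0427), and Cep128, named for a centrosomal protein, by 0.74 (adjusted p = 0.0279), with FPKM that overlapped between the groups. In the 8 fits that left out a library these 4 calls were kept 2, 3, 2 and 3 times.

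Among the 8 most abundant members only the row AABR07068316 (ENSRNOG00000019648) was called. The share called was 11.9% of all tested members and 20.5% of all tested genes, and no difference from these was tested. LOC102549714 (chr7:60282326-60283912, plus strand), which ends 3619 bp from Yeats4, had the highest level of all members, 447.03, 615.28, 575.62 and 554.84 FPKM in controls and 742.33, 569.46, 1205.6 and 699.76 in MCT. MCT 2 lay within the control range and MCT 3 far above it, and the log2 fold change was 0.55 (SE 0.21, adjusted p = 0.107), or 0.30 without MCT 3. DESeq2 called it (adjusted p = 0.044). AABR07064373, 18927 bp past Nkx2-1, the transcription factor gene of lung epithelium, had 57.67 to 81.8 FPKM in controls and 56.21 to 72.1 in MCT (log2 fold change -0.25, adjusted p = 0.214), and passed the test without control 1 (-0.35, adjusted p = 0.04). Of the processed_transcript rows with protein names, Snx3 had a log2 fold change of 0.01, Itgb5 of 0.17 and Cd93, an endothelial and myeloid surface protein, of -0.44 (adjusted p = 0.951, 0.441 and 0.0838). DESeq2 called Cd93 (adjusted p = 0.032).

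The name AC134224 belongs to 3 abundant members on the minus strand of chromosome 1. ENSRNOG00000062158 (chr1:221158098-221158792) had 347.63, 56.75, 75.12 and 58.76 FPKM in controls and 77.32, 680.13, 451.77 and 250.99 in MCT. Control 1 lay within the MCT range and MCT 1 just above the other 3 controls, and the log2 fold change of 1.44 had an SE of 0.82 (adjusted p = 0.268). This value rested on single libraries. It was 2.51 and passed the test without control 1 (adjusted p = 0.049), 2.84 without control 1 and MCT 1 (adjusted p = 0.00603) and 0.94 without MCT 2 (adjusted p = 0.528). ENSRNOG00000062127 (chr1:221154561-221156910) stayed between 51.71 and 73.75 in controls and 62.46 and 68.83 in MCT, with a log2 fold change of 0.06 (SE 0.12, adjusted p = 0.773). ENSRNOG00000062155 (chr1:221151827-221153278) had 22.3 to 39.19 in controls and 19.42 to 28.74 in MCT, with a log2 fold change of -0.29 (SE 0.21, adjusted p = 0.375).

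**Figure D4:**
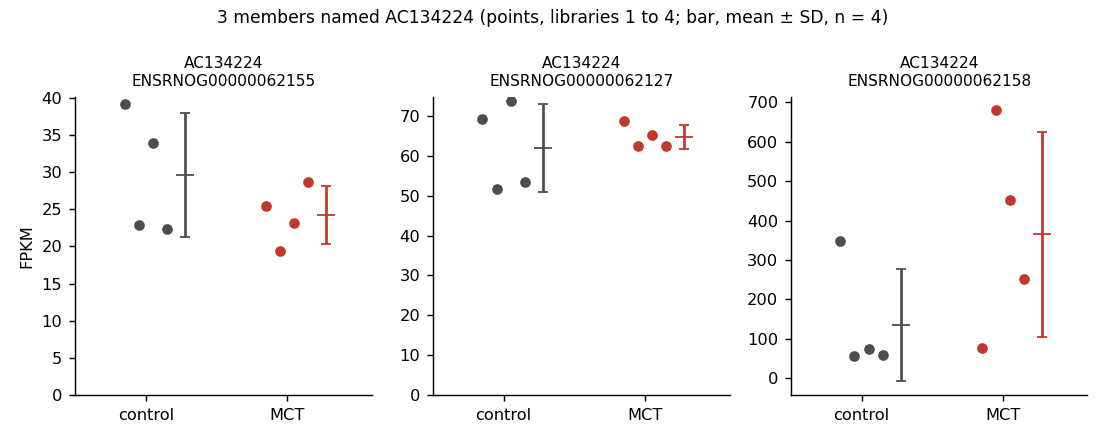
FPKM (vertical axes, each on its own scale) of the 3 members named AC134224; points are libraries 1 to 4 of each group and bars the mean ± SD (n = 4). Only ENSRNOG00000062158 spreads widely within groups, from 56.75 to 347.63 in controls and from 77.32 to 680.13 in MCT.

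Members were then set beside their nearest protein-coding gene. It overlapped the member in 32 cases, lay within 10 kb in 86 and farther away in 118. Of the 28 called members, the neighbour was called in the same direction for 8, in the opposite direction for 5, not called for 7 and not tested for 8. The 8 became 5 without control 2, MCT 2 or MCT 3. Over all members 47 of 191 tested neighbours were called (24.6%, against 20.5% of all tested genes). The share was 29.3% for neighbours at 1 bp to 10 kb and 33.3% for overlapping ones. Within 10 kb or overlapping, 6 of 11 called members had a neighbour called the same way, AABR07044017, AABR07061382, AC125982, AABR07058656, AABR07012475 and Arid5b. The spans of Arid5b and Tmem26 overlap, and AC125982 may be part of the Shank3 transcript, so agreement in those pairs may reflect shared reads. In the 1 case of opposite direction at that distance, Smg1 fell while Arl6ip1, an endoplasmic reticulum protein gene 4595 bp away, rose by a log2 fold change of 0.45.

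Across pairs at 1 bp to 10 kb (n = 75) the log2 fold changes of member and neighbour had a Pearson correlation of 0.50 and a Spearman correlation of 0.35. Beyond 10 kb (n = 89) these were 0.03 and 0.07, and for overlapping pairs (n = 27) 0.24 and 0.18. Over all 191 pairs they were 0.17 and 0.19. The sign was not the same in every subset: tail-to-tail pairs within 10 kb (n = 11) gave -0.35 and -0.49, and pairs of processed_transcript members at any distance (n = 25) gave -0.30 and -0.33. All pairs share the same 8 libraries and some share a neighbour, so these values describe the pairs only. Of the 24 members transcribed away from a neighbour within 10 kb, 2 were called, those at Foxf1 and Gata2, which is a smaller share than the 11.9% of all tested members.

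Most called neighbours lay beside a member that was not called. Of the 47, 8 stood beside a member called the same way and 5 beside one called the opposite way. AC098750 ends 23 bp before Efna1, the gene of ephrin-A1. It had 0.92, 1.94, 1.63 and 1.54 FPKM in controls and 0.72, 0.89, 0.76 and 0.68 in MCT (log2 fold change -0.98, SE 0.42, adjusted p = 0.135), while Efna1 fell by 1.23 on the log2 scale. AABR07045403, 5364 bp before the transcription factor gene Foxo3, had a log2 fold change of 0.08 with an SE of 0.59, and Foxo3 one of -1.22. AABR07044388 (ENSRNOG00000033581), which overlaps the steroid hydroxylase gene Cyp21a1 on the other strand, had one of -0.48 (SE 0.16, adjusted p = 0.061), and Cyp21a1 one of 2.38. These 3 were chosen after their values were seen.

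**Figure D5:**
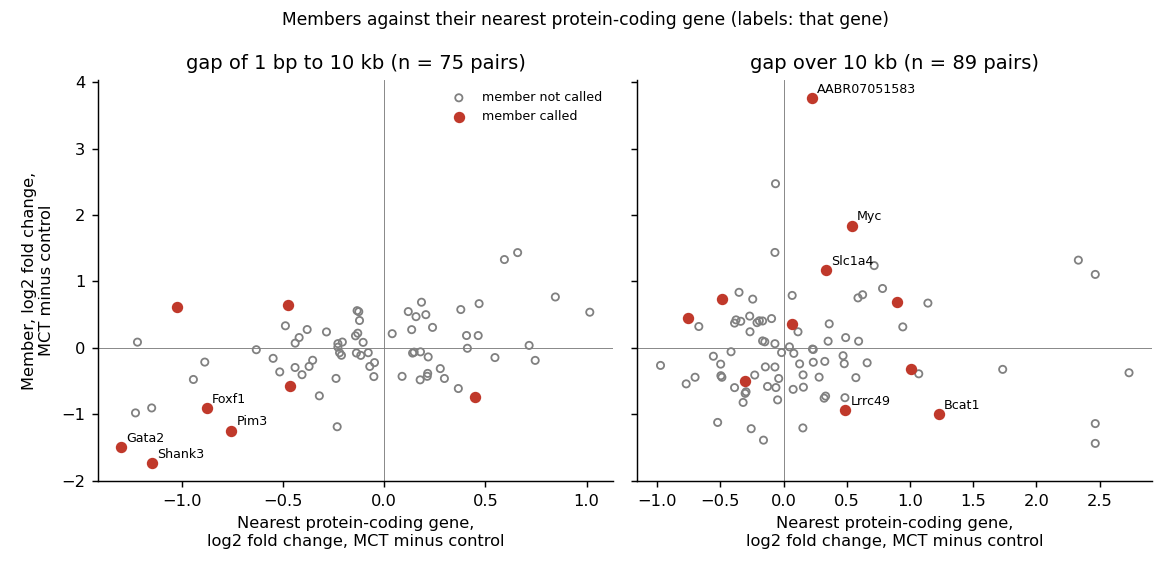
Each point is a member and its nearest protein-coding gene, with the log2 fold change (MCT minus control) of the gene on the horizontal axis and of the member on the vertical axis; filled points are called members and labels name the gene. In the left panel (1 bp to 10 kb, n = 75) the members beside Gata2, Foxf1, Shank3 and Pim3 lie at the lower left, and in the right panel (over 10 kb, n = 89) the Pearson correlation is 0.03.

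Of 76 widely studied long noncoding RNAs, 6 have a row under their name and 1, Tug1, was a member. Of the 4 tested rows of that list 1 was higher, Ptprv, which the table annotates as protein-coding, and none lower. Tug1, a conserved nuclear and cytoplasmic RNA that starts 1505 bp from Morc2, had 12.05, 9.41, 11.79 and 13.26 FPKM in controls and 10.83, 11.11, 11.08 and 9.94 in MCT, overlapping groups with a log2 fold change of -0.11 (SE 0.10, adjusted p = 0.46). Kantr, a noncoding gene of the X chromosome outside that list, had one of -0.07 (SE 0.40, adjusted p = 0.93).

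Proteins with which noncoding RNAs are known to work were counted in the same fit, beside a median log2 fold change of 0.03 and a share called of 20.5% over all tested genes (11.0% higher, 9.45% lower). The counts describe the lists, and no difference from that share was tested. Of 24 proteins of nuclear speckles and paraspeckles none was higher and 1, Son, was lower (median 0.02). Of 34 genes of RNA decay and noncoding RNA processing 2 were higher, the small nucleolar ribonucleoprotein genes Nop58 (log2 fold change 0.54) and Fbl (0.40), and 4 lower, the microRNA processing enzyme gene Drosha (-0.37), the decay factor genes Upf1 (-0.38) and Upf2 (-0.42), and Smg1, itself a member (median -0.10). Of 23 Polycomb and other chromatin genes 1 was higher, Rbbp7 (0.28), and 5 were lower, among them Cbx7 (-1.23), Kmt2a (-1.03), Ezh1 (-0.73) and Bmi1 (-0.44), with a median of -0.09.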

How the data were processed

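RNA sequencing libraries of rat lung (4 MCT, 4 control) were prepared from oligo(dT)-selected RNA, per the labels' protocols. The submitters' processing notes name cutadapt 1.9, HISAT2 2.0.4, StringTie 1.3.4d, edgeR and the build Rnor_6.0, without order or settings. The deposited table holds an FPKM value and an estimated count per gene and library, per the file headers. These deposited counts come in steps of about 3.67 per read pair, from which the read pairs given were computed. All 16 value columns matched a library and were used. The sources used here do not say whether strand was used in counting.

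Counts were tested on the whole table with edgeR 4.0.16 (filterByExpr with a minimum count of 10, TMM scaling, robust quasi-likelihood test, two-sided, R 4.3.3), with Benjamini-Hochberg adjustment over 16715 genes. Log2 fold changes are MCT minus control. Alternatives used limma 3.58.1 on log2(FPKM + 0.1, 0.5 or 1), DESeq2 1.42.0, other filters, scalings and member rules, a replicate block, and each library left out. No libraries of a group were duplicates. The neighbour is the nearest protein-coding row by the gap between spans. Sequences are from RefSeq (GRCr8). Read pair ratios carry exact binomial intervals.

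Named members were the 8 most abundant, the 10 largest rises and falls among called members without overlap, those in the list of known long noncoding RNAs, those with the smallest p beside a neighbour within 10 kb called the same or the opposite way (up to 5 each), and the 3 rows on each side of the threshold. The other called members are also given. Some neighbouring or listed genes are not reported here. The members and lists were chosen with earlier results of these data known. Marker lists not described in the report gave these counts of higher and lower genes among those tested. Ciliated cells had 0 and 0 of 10, T and NK cells 1 and 5 of 12, alveolar epithelium 1 and 4 of 12, cardiac muscle 1 and 0 of 10 and red blood cells 0 and 0 of 6.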

Additional observations from a re-analysis of the deposited data

Results flagged for a closer look

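Among 76 groups of 4 libraries of the named members, 6 had a library whose gap to its nearest neighbour, as a share of the group's range, was above Dixon's 95% critical value of 0.829, where chance gives about 1 in 20, or 3.8. In controls these were control 4 for Smg1 (0.842, the highest at 2.89 FPKM), control 1 for ENSRNOG00000062158, one of the rows named AC134224 (0.846, the highest at 347.63 FPKM), and control 1 for AABR07064373 (0.868, the lowest at 57.67 FPKM). In MCT they were MCT 1 for Arid5b (0.837, the lowest at 3.51 FPKM), MCT 1 for AABR07026612 (1.0, the only MCT library above 0, at 0.11 FPKM) and MCT 4 for LOC102555094 (1.0, likewise, at 0.25 FPKM). In these last 2 the other 3 libraries are at 0, so the share is 1 by construction and they say nothing against the number chance gives.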

How the results depend on the processing

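Of the 28 called members 11 kept their call in all 18 alternative fits and 14 in all 8 that left out a library. The 11 are AABR07044017, AABR07061382, AC125982, AABR07064873, Arid5b, Smg1, Trrap, AABR07058158, AABR07038983, AABR07016572 and AC103574. AC103574 was a member only through its level in MCT, so its steady call carries no weight. The same holds for AABR07026612 and LOC102555094, members through controls only, which are among the 14. With each library left out in turn, 5 to 11 members were higher, 10 to 24 lower and 5 to 11 called members had a neighbour called the same way, against 11, 17 and 8. Over all tested genes 1191 to 1946 were then higher and 975 to 1730 lower, against 1845 and 1579. DESeq2 called 13 members higher and 27 lower, and over all tested genes 2266 and 2181. The replicate block gave 5 higher, 11 lower and 5 neighbours called the same way, with 1436 higher and 1271 lower over all tested genes. Replicate numbers did not pair the libraries (correlations of same-numbered deviations 0.11, 0.016, -0.017 and -0.085). Requiring also a 1 unit change on the log2 scale left 4 and 7, and over all tested genes 618 and 298. The 4 and 7 include AC103574, AABR07051592, AABR07026612, LOC102555094 and AABR07064878. These were members only through the group in which they were high, so they carry no weight here. Members that overlap no other gene held 11 of the lower calls. Of the member rules added after seeing the data, including rows with a further type gave 20 higher and 44 lower, leaving out descriptions that name a protein gave 7 higher, and lincRNA and antisense alone gave 7 and 10. Values near 0 changed sign and were not called: ENSRNOG00000062127 ran from -0.012 (without control 4) to 0.159 (without control 3), with -0.010 without control 2, and Snx3 from -0.028 (without MCT 1) to 0.040 (without MCT 3), with -0.000 without MCT 4, -0.022 without control 4, -0.022 without control 1 and MCT 1, and -0.004 with DESeq2 and -0.004 with median-of-ratios size factors. At a median of 50.4 read pairs per library the median SE of a member's log2 fold change was 0.349, and the smallest change detectable in members was not measured.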
